A study of Bos taurus with 18 samples.

Results

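The genes examined write, read or accompany repressive marks on histones. They are EZH2, EED and SUZ12 of the Polycomb repressive complex, EHMT1 and CBX3 of the H3K9 methylation pathway, and the histone deacetylases HDAC1, HDAC2 and HDAC3. The members were all probe sets whose only listed gene symbol is one of these 8, which gave 34 of 24016 tested probe sets for 7 of 9155 genes. SUZ12 has no probe set here. EED has 23, EHMT1 has 4, HDAC2 has 3, and EZH2, CBX3, HDAC1 and HDAC3 have 1 each. All 7 measured genes are autosomal.

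The samples were bovine blastocysts of mixed breed, produced in vitro and snap frozen on day 7 after insemination. Their sex was set by sorted semen of 3 sires, called bull 1, bull 2 and bull 3. On each of 18 arrays, RNA pooled from 60 blastocysts was measured, all of the same sex and sire. With 3 pools for each of the 6 groups, 9 female pools were set against 9 male pools. No group was treated. It is not stated whether replicate pools were fertilised separately, and p-values therefore cover the spread between pools, which may be technical. Values are log2 signals of a probe set and compare arrays, not probe sets or genes with each other. In pooled whole embryos, a change in the number of cells of a type and a change of RNA per cell cannot be told apart.

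Polycomb repressive complex 2 methylates histone H3 at lysine 27. EZH2 is its catalytic subunit, EED binds the methylated tail and stimulates the enzyme, and SUZ12 holds the core together. EHMT1, also called GLP, works with EHMT2 (G9a) to methylate histone H3 at lysine 9, and CBX3 (HP1 gamma) is a reader of that mark. HDAC1 and HDAC2 are the paired deacetylases of the NuRD, Sin3 and CoREST complexes, and HDAC3 is the deacetylase of the NCoR and SMRT complexes. These enzymes are widely studied in early embryos, where lineages are set apart and where female cells silence an X chromosome.

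The arrays matched their sex labels at XIST, the silencing RNA of the inactive X chromosome, which lay between 8.87 and 9.57 in females and between 5.93 and 7.28 in males. Array medians were 5.33 to 5.49. A set of 4 arrays had a wide spread, meaning an interquartile range over 0.25 of the values relative to each probe set's median, in a range of 0.168 to 0.349 over all arrays. They were male bull 1 replicate 2, male bull 2 replicate 1, male bull 3 replicate 3 and female bull 1 replicate 3. Mean signals of blastocyst markers were 14.04 for KRT18, 5.77 for KRT8 and 11.93 for POU5F1, and those of cumulus cell markers were 2.42 for PTX3 and 9.90 for HAS2. Signals of different probe sets do not rank transcripts, so these values do not give the makeup of the pools, and CDX2 and NANOG were not measured. Of the measured markers, 1 of 7 for trophectoderm, 1 of 3 for the inner cell mass, 0 of 4 for the primitive endoderm, 2 of 12 for cumulus and granulosa cells and 1 of 7 for oocytes were higher in females, and 2, 0, 1, 1 and 0 were higher in males. Over all 9155 genes, each at its brightest probe set, 11.5% were higher in females and 9.31% in males. Among these markers were differences larger than that of EZH2 below, with the trophectoderm genes IFNT2 at 0.59, TFAP2A at -0.54 and PAG2 at -0.68, SPP1 of the inner cell mass at 0.56 and CYP19A1, the granulosa cell aromatase, at 0.56. KRT18, POU5F1 and GATA6, of the trophectoderm, inner cell mass and primitive endoderm in turn, gave -0.0035, 0.00049 and 0.07 and did not pass. A sign of RNA integrity, the signal at the 5′ end minus that at the 3′ end averaged over 3 control transcripts, was -0.348 ± 0.25 in females and -0.35 ± 0.461 in males (SD, n = 9). By bull it was -0.098 ± 0.322, -0.253 ± 0.096 and -0.694 ± 0.313 in bulls 1, 2 and 3 (SD, n = 6), with bull 3 from -1.27 to -0.359. The part of cell makeup and RNA quality in the results below was not tested.

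The main comparison asked which of these genes differed between female and male embryos. EZH2 was higher in females, whereas a probe set of EHMT1 and that of CBX3 were higher in males. HDAC1, HDAC2 and HDAC3 did not pass the test in either direction. The 23 probe sets listed for EED split, with 5 higher in females, 2 higher in males and 16 that did not pass. By limma, with Benjamini-Hochberg adjustment over all probe sets, 10 of the 34 probe sets (29.4%) were called at an adjusted p under 0.05, against 15.6% of all 24016. Of these, 6 were higher in females (8.12% over the array) and 4 higher in males (7.47%). Without EED, 3 of 11 (27.3%) were called. The 34 all have a gene symbol, while 10638 of the 24016 have none. With each gene's probe sets averaged, 2 of 7 member genes (28.6%) were called, against 22.9% of 9155 genes. The median female minus male difference of the 34 was 0.02 on the log2 scale, and that of all probe sets was -0.03. EED supplies 23 of the 34 probe sets, which is why counts are given with and without it.

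**Figure D1:**
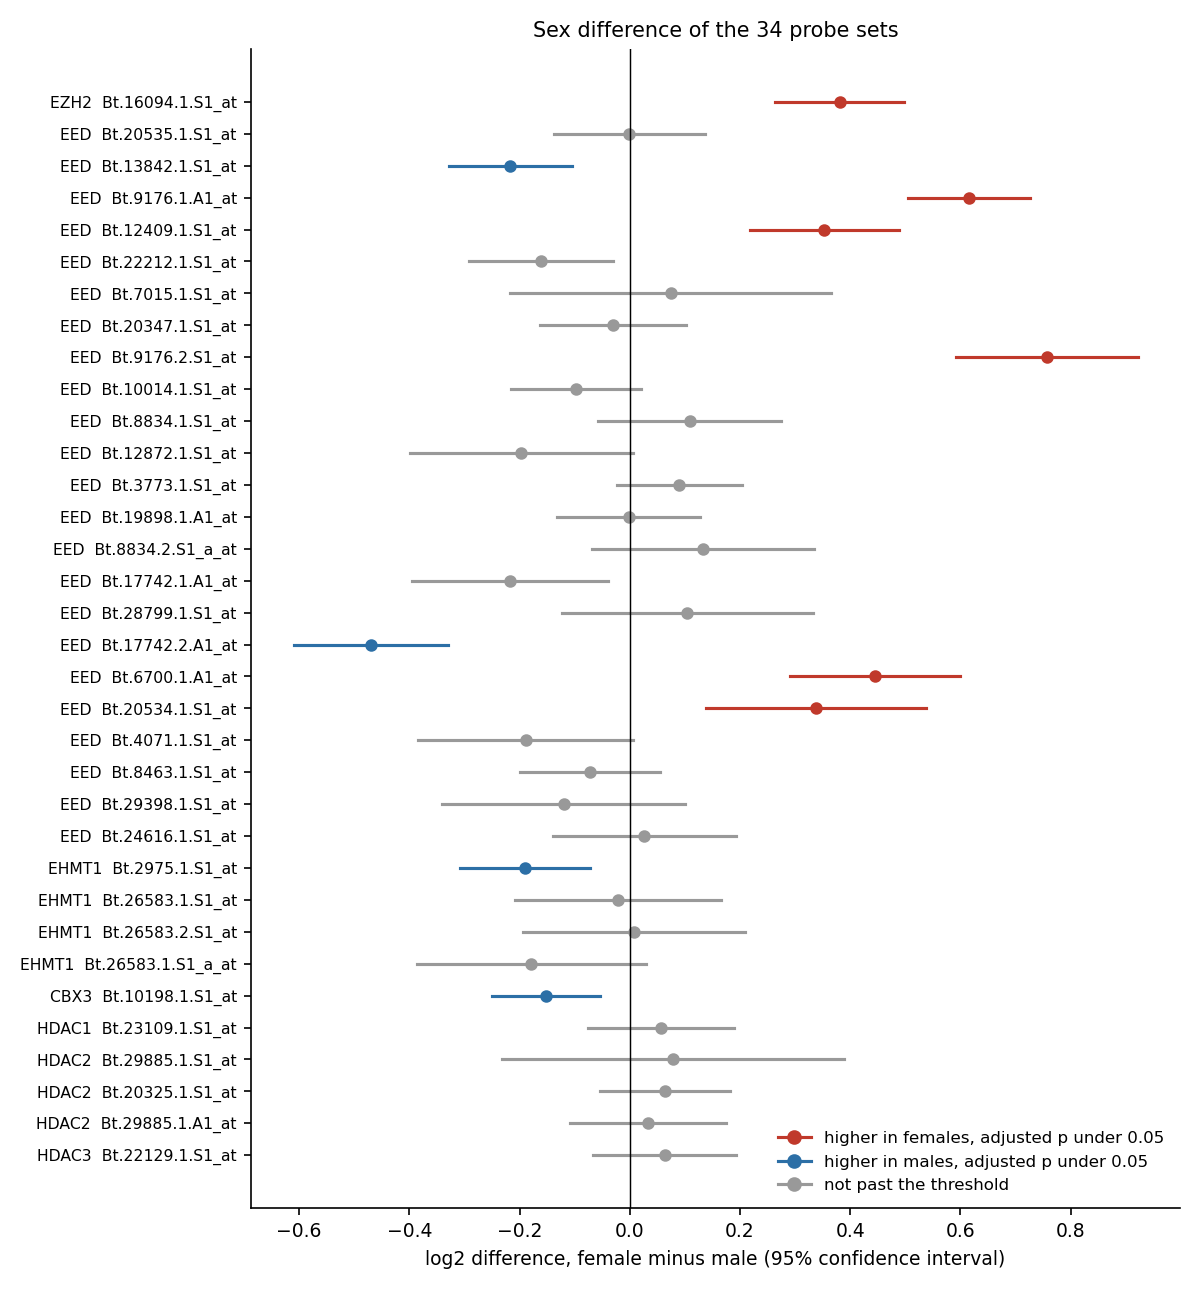
Female minus male log2 difference of each of the 34 probe sets (x axis, points) with its 95% confidence interval (bars), averaged over 3 bulls, with 9 arrays per sex. Colours mark the calls at an adjusted p under 0.05, and the EED probe sets run from -0.47 to 0.76 on both sides of 0.

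EZH2, the H3K27 methyltransferase, separated the sexes on every array. In females it ranged from 9.41 to 9.69 with a median of 9.52, and in males from 9.02 to 9.30 with a median of 9.15. Every female pool was above every male pool, which was so for 1.99% of all probe sets. The means were 9.54 ± 0.098 and 9.16 ± 0.095 (SD, n = 9 each), a difference of 0.38 (SE 0.056, 95% confidence interval 0.26 to 0.50) or 1.30-fold, with an adjusted p of 8.97e-05 in limma's test. Of all called probe sets, 34.36% had a larger absolute difference than EZH2, and the median of the called was 0.32.

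The female excess of EZH2 was seen under each sire. With bull 1 the female pools stood at 9.47, 9.47 and 9.66 and the male pools at 9.02, 9.27 and 9.07. With bull 2 the values were 9.45, 9.69 and 9.61 in females and 9.30, 9.16 and 9.24 in males. With bull 3 they were 9.52, 9.41 and 9.56 in females and 9.13, 9.15 and 9.08 in males. No female pool of a bull overlapped a male pool of any bull. The differences of 0.41, 0.35 and 0.38 in bulls 1, 2 and 3 had adjusted p-values of 0.0176, 0.0565 and 0.032 in limma's test, so that bull 2 alone did not pass. The test of unequal sex differences between bulls gave an unadjusted p of 0.898. Without the 4 arrays of wide spread, a check added after the data were seen, the difference over all bulls was 0.39.

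**Figure D2:**
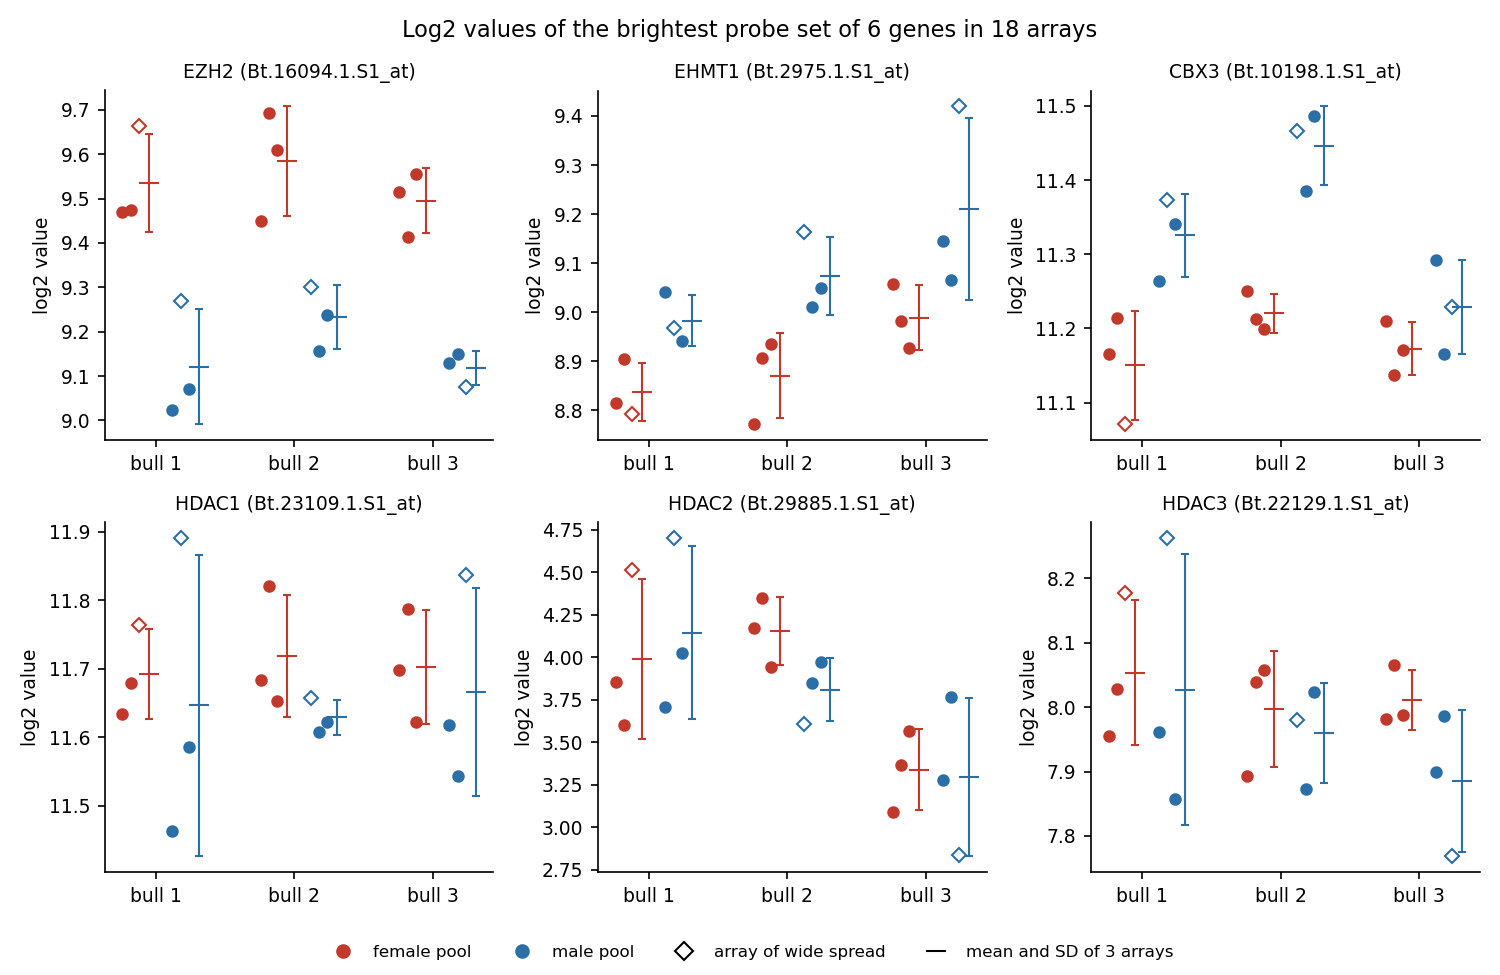
Log2 value of the brightest probe set of EZH2, EHMT1, CBX3, HDAC1, HDAC2 and HDAC3 on each array (y axis, a separate scale in each panel) by bull (x axis), with red for female and blue for male pools, open diamonds for the 4 arrays of wide spread, and lines for the mean and SD of 3 arrays. The EZH2 females, at 9.41 or above, all lie over the males, at 9.30 or below, while the sexes overlap in the other panels.

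EED, the subunit that reads trimethylated lysine 27, could not be given a single level. Its symbol is listed for 23 probe sets from 20 sequence clusters, more than for all other symbols but 1 (the highest number is 24 and the median symbol has 1). The mean signals of these probe sets ran from 3.43 to 9.97. Which of them, if any, measures the EED transcript cannot be told from the annotation used here, so each is given under its own identifier and none stands for the gene.

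Among those called, Bt.9176.2.S1_at had the largest difference of any member. It ranged from 8.01 to 8.38 in females (median 8.11) and from 7.06 to 7.75 in males (median 7.36), with means of 8.15 ± 0.11 and 7.39 ± 0.23 (SD, n = 9) and a difference of 0.76 (adjusted p = 1.67e-06, limma). A probe set of the same cluster, Bt.9176.1.A1_at, ranged from 9.23 to 9.56 in females (median 9.32) and from 8.51 to 8.93 in males (median 8.68), a difference of 0.61 (adjusted p = 1.85e-07, limma). In both, all 9 females were above all males, and the difference passed within each bull (0.85, 0.75 and 0.67 for the former, 0.63, 0.65 and 0.56 for the latter). Bt.12409.1.S1_at, of another cluster, ranged from 8.64 to 8.88 in females (median 8.77) and from 8.29 to 8.75 in males (median 8.35), a difference of 0.35 (adjusted p = 0.000743, limma). Its sexes overlapped through male bull 3 replicate 3 at 8.75, and every other male was at or below 8.51.

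The other 2 EED probe sets higher in females lost their calls in some fits. Bt.6700.1.A1_at was higher by 0.44 over all bulls (adjusted p = 0.000308, limma), but by 1.04, 0.17 and 0.12 in bulls 1, 2 and 3, and without bull 1 the difference of 0.15 did not pass (adjusted p = 0.332). With bull 1 its female pools stood at 5.77, 5.47 and 5.86 and its male pools at 4.79, 4.56 and 4.62, a gap wider than in the other bulls, where female and male values met. Bt.20534.1.S1_at ranged from 4.62 to 5.347 in females and from 3.94 to 4.80 in males, a difference of 0.34 (adjusted p = 0.0193, limma). It no longer passed without any of the bulls (adjusted p = 0.0675 to 0.104) or without moderation (adjusted p = 0.0502).

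A pair of EED probe sets went the other way. Bt.17742.2.A1_at ranged from 4.61 to 5.13 in females (median 4.85) and from 5.02 to 5.67 in males (median 5.28), a difference of -0.47 (adjusted p = 6.5e-05, limma), and 7 of 9 females lay below the lowest male. Its differences were -0.49, -0.42 and -0.49 in bulls 1, 2 and 3, of which those in bulls 1 and 3 passed. Bt.13842.1.S1_at ranged from 9.65 to 9.84 in females and from 9.74 to 10.11 in males, a difference of -0.22 (adjusted p = 0.00808, limma) that did not pass without bull 2 or bull 3 (adjusted p = 0.0606 and 0.119). The brightest EED probe set, Bt.20535.1.S1_at, had medians of 9.95 in females and 9.97 in males and did not pass (adjusted p = 0.996, 95% confidence interval -0.14 to 0.14). The 16 probe sets that did not pass had differences of -0.22 to 0.13 and adjusted p-values of 0.0924 to 0.996. The mean over all 23 probe sets listed for EED gave a difference of 0.055 (adjusted p = 0.368, limma).

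The EED probe sets also disagreed from array to array. Over the 18 arrays, Pearson's r between probe sets of different clusters ran from -0.881 to 0.88 with a median of -0.00848 over 250 pairs, while 3 pairs from the same cluster gave 0.648, 0.679 and 0.876. These coefficients are descriptions over arrays that share the sex difference. After the mean of each group was removed, the same-cluster pairs gave 0.00895 to 0.464 and the others -0.806 to 0.859. Among pairs of different clusters, negative coefficients were about as frequent as positive ones.

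**Figure D3:**
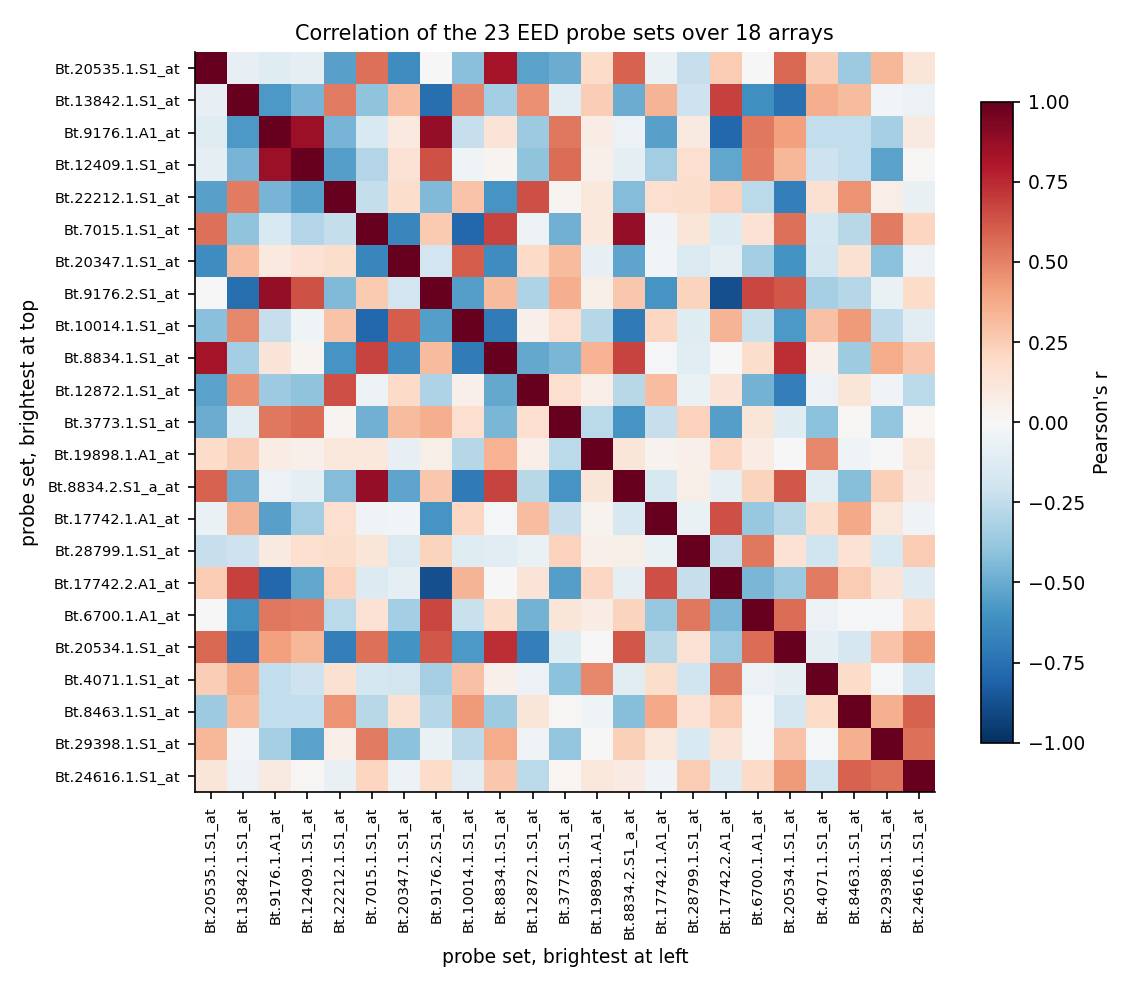
Pearson's r over 18 arrays between the 23 probe sets listed for EED, ordered by mean signal on both axes, with red for positive and blue for negative values. Pairs of different clusters cover -0.881 to 0.88, and no single block of positive values takes in all 23.

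A probe set of EHMT1 and that of CBX3, genes that act on H3K9 methylation, were slightly higher in males. The brightest EHMT1 probe set ranged from 8.77 to 9.06 in females (median 8.91) and from 8.94 to 9.42 in males (median 9.05). The sexes overlapped, although 7 of 9 females were below the lowest male, and the highest male was bull 3 replicate 3 at 9.42. The means were 8.90 ± 0.093 and 9.09 ± 0.144 (SD, n = 9), a difference of -0.19 (SE 0.056, 95% confidence interval -0.31 to -0.07), 1.14-fold higher in males with an adjusted p of 0.0268 in limma's test. The differences of -0.15, -0.20 and -0.22 in bulls 1, 2 and 3 had the same sign and none of them passed. The other 3 EHMT1 probe sets, from another cluster, gave -0.18, -0.02 and 0.01 and did not pass (adjusted p = 0.27, 0.914 and 0.973), so the call rests on 1 of 4. The mean over the 4 probe sets gave -0.096 (adjusted p = 0.215, limma). The call of the brightest probe set was lost without any of the bulls (adjusted p = 0.0734 to 0.188) and with bull as the replicate (0.0701). It was also lost without the 4 arrays of wide spread (-0.14, adjusted p = 0.0733). Leaving out 1 array ended it for male bull 1 replicate 1, male bull 2 replicate 1, female bull 2 replicate 1 or female bull 3 replicate 3 (adjusted p = 0.051 to 0.0644).

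CBX3, the HP1 gamma protein that binds methylated H3K9, ranged from 11.07 to 11.25 in females (median 11.20) and from 11.16 to 11.49 in males (median 11.34). Only 2 females were below the lowest male, but 8 of 9 males were above the female median. The means were 11.18 ± 0.053 and 11.33 ± 0.107 (SD, n = 9), a difference of -0.15 (SE 0.047, 95% confidence interval -0.25 to -0.05), 1.11-fold higher in males with an adjusted p of 0.0317 in limma's test. The differences in bulls 1, 2 and 3 were -0.18, -0.23 and -0.06, none of which passed. The male values of bull 3, at 11.29, 11.16 and 11.23, lay near the females of that bull at 11.21, 11.14 and 11.17. The call was lost without any of the bulls (adjusted p = 0.0634 to 0.378), with bull as the replicate (0.161) and without the 4 arrays of wide spread (0.0674). It was also lost when 1 of 8 arrays was left out (adjusted p = 0.051 to 0.0664), namely male bull 2 replicates 1 or 3, female bull 2 replicates 2 or 3, male bull 3 replicate 1, female bull 3 replicates 2 or 3, and female bull 1 replicate 3.

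The deacetylases HDAC1, HDAC2 and HDAC3 overlapped between the sexes. HDAC1 ranged from 11.62 to 11.82 in females (median 11.68) and from 11.46 to 11.89 in males (median 11.62), with a difference of 0.06 (95% confidence interval -0.08 to 0.19, adjusted p = 0.624, limma). HDAC3 ranged from 7.89 to 8.18 in females (median 8.03) and from 7.77 to 8.26 in males (median 7.96), with a difference of 0.06 (-0.07 to 0.19, adjusted p = 0.573). For both genes the range of the males took in that of the females, and the intervals leave out differences as large as that of EZH2. For each gene the highest male value, 11.89 for HDAC1 and 8.26 for HDAC3, was from bull 1 replicate 2, an array of wide spread.

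HDAC2 was dim on these arrays. Its 3 probe sets had mean signals of 3.79, 2.92 and 2.65, and these lie at the 28.34, 11.2 and 5.371 percentiles of signal over all probe sets. Their sex differences were 0.08 (95% confidence interval -0.23 to 0.39), 0.06 and 0.03 (adjusted p = 0.795, 0.522 and 0.807, limma). The brightest, Bt.29885.1.S1_at, ranged from 3.09 to 4.51 in females and from 2.84 to 4.70 in males. Its interval is wider than those of HDAC1 and HDAC3 and holds the size found for EZH2.

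Within single bulls, few members passed. In bull 1, 5 of 34 probe sets were called, against 4.2% of all probe sets, with 4 higher in females (2.74% of all) and 1 in males (1.46%). In bull 2 there were 2, against 3.13%, both higher in females (2.57%). In bull 3 there were 4, against 4.18%, with 3 higher in females (2.65%) and 1 in males (1.53%). Without EED, 1, 0 and 1 of 11 probe sets were called in bulls 1, 2 and 3, so most of these calls were EED probe sets. Both probe sets of the cluster Bt.9176 were called in all 3 bulls, and EZH2 and the EED probe set Bt.17742.2.A1_at in bulls 1 and 3. EHMT1, CBX3 and the deacetylases were called in no bull. The sign of the sex difference was the same in all bulls for 17 of the 34 (11 of 23 for EED, 6 of the other 11), against 48.1% of all probe sets. Leaving out 1 array moved the counts to 3 to 6, 2 to 4 and 2 to 5 in bulls 1, 2 and 3, with 3 in bull 1 without its male replicate 1, 4 in bull 2 without male bull 1 replicate 2, and 2 in bull 3 without its female replicate 1 or 2.

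Whether a sex difference varied with the bull was tested by the interaction, which called no member and no probe set of the array (0%). At an unadjusted p under 0.05, limma's interaction test gave 2 of 34 members, against 2.73% of all probe sets, and the analysis of variance without moderation called 0 and gave 3 at that level. Both were EED probe sets. Bt.6700.1.A1_at, described above, had an unadjusted p of 8.03e-05, and Bt.28799.1.S1_at, with differences of 0.65, -0.06 and -0.27 in bulls 1, 2 and 3, had 0.0071. The adjusted p of both was 1.

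The design also sets the sires side by side. Between bulls, EZH2, EHMT1, CBX3, HDAC1 and HDAC3 were not called, and the calls fell on a dim HDAC2 probe set and on EED probe sets. Each bull is 1 sire, and any production or hybridisation batch shared by its pools is not given in the sources used here, so sire and batch cannot be told apart. For bull 2 against bull 1, 1 of 34 was called (0 of 11 without EED), against 1.52% of all probe sets. For bull 3 against bull 1 and against bull 2, 3 were called each time (1 of 11 without EED), against 3.53% and 3.74%. All of these were lower in the bull named first, as were 1.04%, 2.35% and 2.04% of all probe sets in these comparisons. Without male bull 3 replicate 2 the count against bull 1 rose to 6, and without female bull 3 replicate 2 both counts for bull 3 fell to 0. The count against bull 1 was also 0 without female bull 3 replicate 1. That against bull 2 fell to 0 or 1 in 9 of 18 fits without 1 array, among them each fit without a bull 2 array. The last 2 comparisons share the bull 3 pools, so the same 3 probe sets in both are not separate evidence.

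HDAC2 was lowest in bull 3 by Bt.29885.1.S1_at. The 6 pools of bull 3 ranged from 2.84 to 3.77 (median 3.32), those of bull 1 from 3.60 to 4.70 (median 3.94) and those of bull 2 from 3.60 to 4.35 (median 3.96). The bulls overlapped in single pools. The RNA integrity index was also lowest in bull 3, and the lowest HDAC2 value came from the array with the lowest index, male bull 3 replicate 3 at -1.27, and the highest from that with the highest index, male bull 1 replicate 2 at 0.447. The part of this index in the bull differences was not tested. The differences were -0.75 against bull 1 (adjusted p = 0.0296) and -0.67 against bull 2 (adjusted p = 0.0478) in limma's test. Neither of the other HDAC2 probe sets was called between bulls, and neither was lowest in bull 3. In bulls 1, 2 and 3 the means were 2.85, 2.94 and 2.96 for Bt.20325.1.S1_at and 2.77, 2.57 and 2.62 for Bt.29885.1.A1_at. Several of the extreme values of Bt.29885.1.S1_at came from arrays of wide spread, with 4.70 and 4.51 in bull 1 and 2.84 in bull 3. The results that follow are also for Bt.29885.1.S1_at. Without those arrays the difference from bull 1 was -0.37 (adjusted p = 0.161), while that from bull 2 still passed. The call against bull 1 was also lost without male bull 1 replicate 2, male bull 3 replicate 3, female bull 1 replicate 3 or female bull 3 replicate 1 or 2 (adjusted p = 0.0593 to 0.0906). That against bull 2 was lost in 12 of 18 fits without 1 array (adjusted p = 0.0528 to 0.127).

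The EED probe sets Bt.7015.1.S1_at and Bt.8834.2.S1_a_at were also lower in bull 3, where the RNA integrity index was lowest, and both had their lowest value on the array with the index of -1.27. The former had means of 8.37 ± 0.23, 8.37 ± 0.12 and 7.72 ± 0.51 in bulls 1, 2 and 3 (SD, n = 6), and bull 3 differed by -0.65 from each of the others (adjusted p = 0.041 and 0.0398, limma). Male bull 3 replicate 3, at 6.73, lay far below the other pools of that bull, which were at 7.70 or above. The latter had means of 6.401 ± 0.20, 6.30 ± 0.22 and 5.86 ± 0.30, and differed by -0.55 and -0.45 (adjusted p = 0.0176 and 0.0398). Without the arrays of wide spread the differences from bull 1 were -0.43 (adjusted p = 0.0506) and -0.39 (adjusted p = 0.103). In that fit the difference from bull 2 still passed for the former, and for the latter it was -0.33 (adjusted p = 0.122). Leaving out 1 array ended the calls of the former in 13 and 9 of 18 fits and those of the latter in 2 and 9. Bt.17742.2.A1_at was lower in bull 2 than in bull 1, at 4.91 ± 0.26 and 5.30 ± 0.30 (-0.38, adjusted p = 0.024), and lost this call without the arrays of wide spread (-0.32, adjusted p = 0.1) and in 6 fits without 1 array (adjusted p = 0.0587 to 0.0722).

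**Figure D4:**
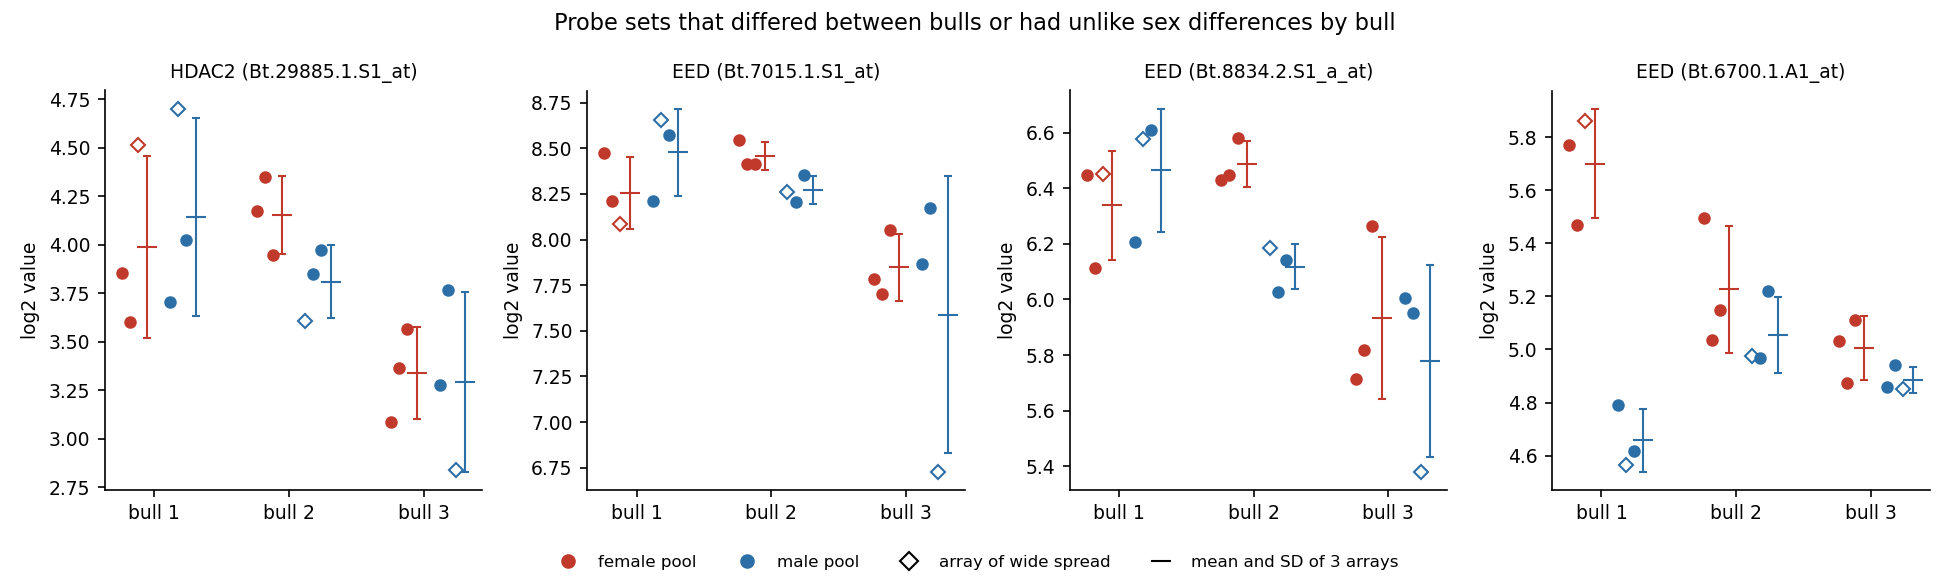
Log2 value on each array (y axis, a separate scale in each panel) by bull (x axis) of the HDAC2 and EED probe sets called between bulls 3 and 1 and of Bt.6700.1.A1_at, with red for female and blue for male pools, open diamonds for the 4 arrays of wide spread, and lines for the mean and SD of 3 arrays. Male bull 3 replicate 3 is the lowest point of the first 3 panels, and the female excess of 1.04 in bull 1 stands out in the last.

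Other genes of these pathways were read from 93 listed genes, of which 56 had a probe set, each taken at its brightest. Among these, 6 were higher in females, 5 were higher in males and 45 did not pass, against 20.8% of 9155 genes called in all (11.5% higher in females and 9.31% in males). The median difference of the 56 was 0.04. The X-linked genes numbered 6, of which 3 were higher in females, against 70% of X-linked genes on the array. Among 50 autosomal genes, 3 had higher signals in females and 5 in males, against 9.45% and 9.62% of autosomal genes. The lists were chosen with results of these data known, and the counts over all 56 stand near the array's shares.

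In the list of other PRC2 genes, 6 were measured, with 1 higher in each sex, against 11.5% of 9155 genes in females and 9.31% in males. RBBP7, the X-linked histone chaperone that PRC2 shares with deacetylase complexes, stood at 12.02 ± 0.044 in females and 11.61 ± 0.089 in males (0.41, adjusted p = 8.22e-06, limma). AEBP2, an accessory subunit, was higher in males, at 9.97 ± 0.10 against 9.68 ± 0.078 (-0.29, adjusted p = 0.000866), and a further probe set of it gave -0.34 and also passed. RBBP4, the autosomal paralog of RBBP7, EZH1, the alternative catalytic subunit, PHF1 and PHF19 did not pass, at 0.04, -0.20, 0.19 and 0.01. KDM6A, the X-linked H3K27 demethylase that acts against PRC2, was higher in females, at 8.81 ± 0.097 against 8.11 ± 0.14 (0.70, adjusted p = 2.45e-07), while a dim probe set of it gave -0.20 (adjusted p = 0.0496). Of 11 measured PRC1 genes, the complex that binds H3K27 methylation, PHC1 alone passed (0.22, adjusted p = 0.0219). It did not pass without bull 2 or bull 3 (adjusted p = 0.246 and 0.0855) or without female bull 2 replicate 3 (0.053).

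Around EHMT1 and CBX3, 5 other H3K9 methyltransferases and partners were measured and 1 passed. ATF7IP, the partner of SETDB1, stood at 8.30 ± 0.098 in females and 7.70 ± 0.24 in males (0.60, adjusted p = 0.000115, limma). EHMT2, the partner of EHMT1, had a difference of -0.16 that did not pass (adjusted p = 0.0748), the same sign as the called EHMT1 probe set. SETDB1, TRIM28 and the X-linked SUV39H1 gave 0.10, 0.04 and 0.08 and did not pass. Of 10 H3K9 demethylases 3 were measured, KDM1A, KDM3A and JMJD1C, and 0 passed, at 0.02, 0.02 and 0.13. The other HP1 genes, CBX1 and CBX5, were not measured.

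Around the class I enzymes, 12 other deacetylases were measured, with 1 higher in females and 4 in males, against 11.5% and 9.31% of 9155 genes. The X-linked HDAC6, a deacetylase of tubulin, was higher in females, at 9.05 ± 0.15 against 8.65 ± 0.14 (0.40, adjusted p = 4.55e-05, limma). HDAC10, a polyamine deacetylase, was higher in males (-0.35, adjusted p = 0.000337), as were SIRT5 (-0.30, adjusted p = 0.0109), SIRT7 (-0.25, adjusted p = 0.0105) and SIRT3 (-0.26, adjusted p = 0.0418). SIRT3 and SIRT5 are mitochondrial and SIRT7 nucleolar, and none of these 4 is a class I enzyme. The SIRT5 and SIRT7 calls were lost without bull 2 (adjusted p = 0.0691 and 0.138) or bull 3 (0.106 and 0.0629), and that of SIRT3 in 13 of 18 fits without 1 array (0.0526 to 0.0884). A dimmer probe set of SIRT3 gave 0.08 and that of HDAC10 gave -0.13, and neither passed (adjusted p = 0.736 and 0.224, limma). The dimmer probe set of SIRT7 gave -0.22 and passed (adjusted p = 0.0438, limma). HDAC8, the X-linked class I enzyme, gave 0.26 and did not pass (adjusted p = 0.101). Of 11 measured partners in deacetylase complexes, GPS2 of the NCoR complex was higher in females (0.20, adjusted p = 0.0103), a call lost without bull 1 or bull 2 (0.0769 and 0.128) and with bull as the replicate (0.0675). MTA1, CHD4, MBD3, NCOR1 and 6 others did not pass at their brightest probe set, nor did any of 7 measured histone acetyltransferases, whose differences lay between -0.15 and 0.15. Of further probe sets, a pair for NCOR1 passed in opposite directions (-0.24 and 0.20, adjusted p = 0.0162 and 0.0272), and 1 for HDAC7 was higher in females (0.24, adjusted p = 0.023), whose brightest probe set gave 0.17 and did not pass.

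**Figure D5:**
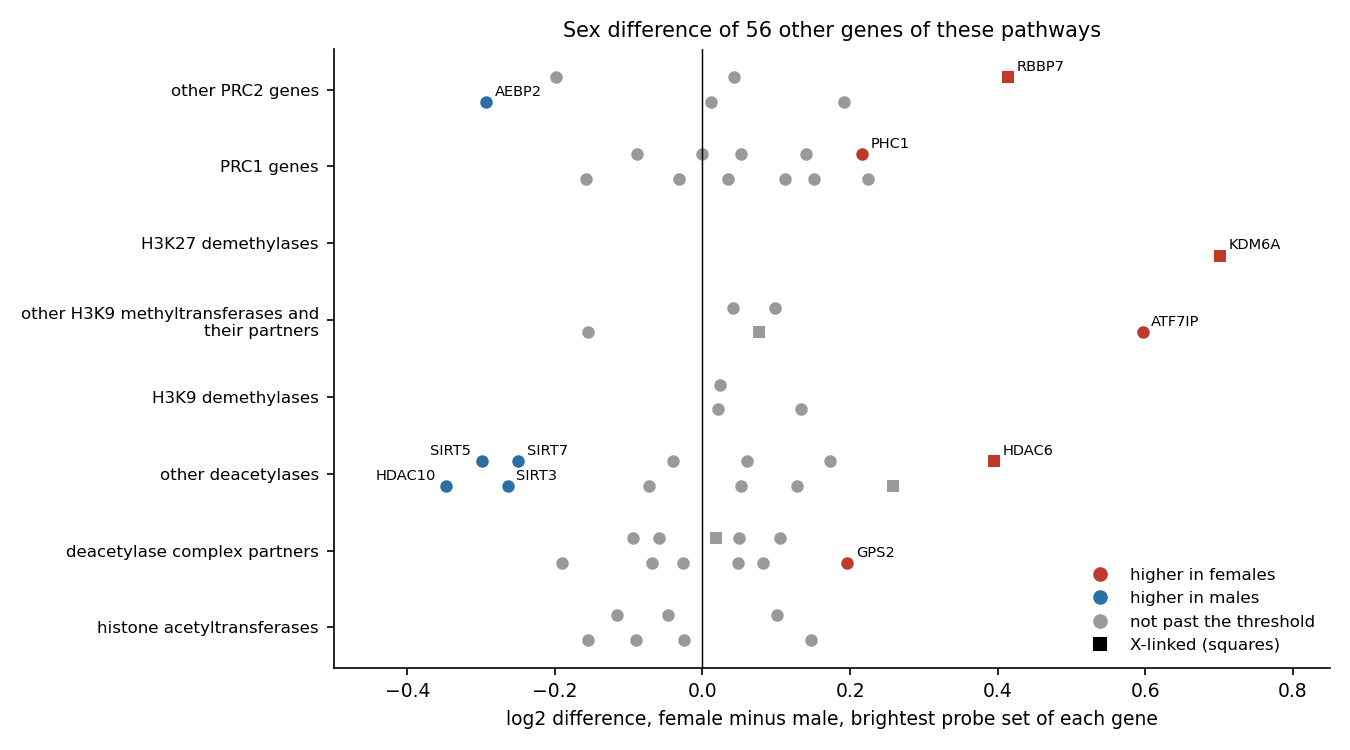
Female minus male log2 difference (x axis) of the brightest probe set of 56 other genes of these pathways, by list (y axis), with squares for X-linked genes and colours for calls at an adjusted p under 0.05. KDM6A, at 0.70, and ATF7IP, at 0.60, lie farthest toward females, and HDAC10, at -0.35, farthest toward males.

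The brightest probe sets of the members varied together to different degrees within groups. With the mean of each group removed, Pearson's r over 18 arrays was 0.739 for EZH2 with the brightest EED probe set, 0.749 for EZH2 with HDAC3, and 0.833 and 0.825 for that EED probe set with HDAC3 and HDAC2. Without the 4 arrays of wide spread, these were 0.647, 0.416, 0.611 and 0.169 over 14 arrays, so each was lower and the last rested on those arrays. HDAC2 with HDAC3 likewise fell from 0.692 to 0.0118, and EZH2 with HDAC2 from 0.619 to 0.264. That EED probe set with EHMT1 turned from -0.463 to 0.424. The brightest probe sets of EHMT1 and HDAC2 opposed each other, with -0.687 over 18 arrays and -0.693 over 14. That EHMT1 probe set also ran against the other 3 listed for its gene, at -0.427 to -0.373 over 18 arrays. That HDAC2 probe set gave -0.128 and 0.422 with the others listed for HDAC2. HDAC1 and HDAC2, partners in the same complexes, gave 0.271 and 0.11. These are descriptions over arrays that share production and hybridisation, and HDAC2 is dim.

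The genes most like each member were those of highest r over the 18 arrays. For EZH2 they were EHD3 (0.952) and UPK1A (0.937), which were also higher in females, by 0.70 and 0.99. Within females and within males, r was 0.578 and 0.911 for EHD3 and 0.628 and 0.612 for UPK1A. For the called EHMT1 probe set they were ZNRF1 (0.93) and NASP (0.916), for CBX3 KPNA2 (0.852) and CRYL1 (0.838, with 0.449 and 0.405 for the pair once group means were removed), and for HDAC1 PNISR (0.861) and MOB3C (0.834). For the brightest HDAC2 probe set they were RBM17 (0.957) and RBPJ (0.946), and without the arrays of wide spread these remained at 0.942 and 0.916. For HDAC3 they were RBM4 (0.893) and CYP4B1 (0.881), and for the brightest EED probe set PWP1 (0.922) and SARNP (0.917). Without those arrays CYP4B1 fell to 0.558 and PWP1 to 0.55.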

How the data were processed

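The labels' protocols describe a linear amplification from 50 ng of total RNA for each of 18 blastocyst pools, measured on Affymetrix bovine arrays. The authors deposited log2 expression values per probe set. Per the submitters' processing notes RMA and Partek 6.4 were used, with roles not stated. RMA draws array distributions together, so a shift of all transcripts cannot be seen, and it understates large differences of dim probe sets. Scan dates and array batches: not given in the sources used here.

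Of 24128 probe sets, 112 controls were left out. The platform annotation, which can be old, names a single gene for 13292 of the rest, more than 1 for 86 and no gene for 10638. An ARS-UCD2.0 gene table brought 13263 symbols up to date (29 found no match) and gave X-linkage. It served no other purpose. No sequences are shown.

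A model with 1 mean for each combination of sex and bull (6 groups) was fitted to all 24016 probe sets by lmFit and eBayes of limma (version 3.58.1, R version 4.3.3), which left 12 residual degrees of freedom. Contrasts were female minus male over all bulls and in each bull, the interaction and pairs of bulls, with Benjamini-Hochberg adjustment at 0.05. A fold change is the log2 difference on a linear scale. Precision is limited by the number of arrays. The steps were run on simulated data with independent noise, without bull differences or arrays of wide spread. That run checks the code and not the calls reported here. The members and lists were chosen with earlier results of these data known. Named genes were every member probe set, up to 4 called genes per list with the smallest adjusted p, and for likeness the 2 genes of highest r per member, with others named where a list was given whole or chosen after their values were seen. Alternatives were an additive model, no moderation, the brighter 50% of probe sets, quantile normalization, an intensity trend, array weights, a replicate block by sample number, fits without each array or bull, bull as the replicate and averaging the probe sets of each gene. A fit without the 4 arrays of wide spread was chosen after the data were seen. The plots were made in matplotlib 3.10.9.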

Additional observations from a re-analysis of the deposited data

Results flagged for a closer look

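Of 68 sets of 9 values (34 probe sets in each sex), 9 had a highest or lowest array whose gap to the next, as a share of the whole range, was above Dixon's 95% critical value, where chance flags about 1 in 20. All 9 flags fell on arrays of wide spread: female bull 1 replicate 3 in 5 sets, male bull 3 replicate 3 in 3 and male bull 1 replicate 2 in 1. The sets share the same arrays and are not independent, so that rate is only a guide.

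Female bull 1 replicate 3 was high for the EED probe sets Bt.20535.1.S1_at (10.24, next 9.998), Bt.8834.1.S1_at (7.813, next 7.587) and Bt.20534.1.S1_at (5.347, next 4.934) and for the HDAC2 probe set Bt.29885.1.A1_at (2.904, next 2.729). It was low for the EED probe set Bt.12872.1.S1_at (6.521, next 7.148). Male bull 3 replicate 3 was high for the called EHMT1 probe set Bt.2975.1.S1_at (9.419, next 9.163) and the EED probe set Bt.12409.1.S1_at (8.753, next 8.507), and low for the EED probe set Bt.7015.1.S1_at (6.729, next 7.864). Male bull 1 replicate 2 was low for the EED probe set Bt.22212.1.S1_at (7.976, next 8.248). EZH2, CBX3, HDAC1 and HDAC3 had no such array in either sex.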

How the results depend on the processing

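EZH2 kept its direction and call in all 18 fits without 1 array (0.36 to 0.41, adjusted p = 3.7e-05 to 0.000347) and in 13 others (adjusted p = 5.2e-06 to 0.00506). The count of members called for sex, 10, ranged from 8 to 11 when 1 array was left out. It was 6 without bull 2 and 6 without bull 3, which over all probe sets turned 3743 (3175 to 3983 without 1 array) into 2044 and 2182. Array weights called 14 members, and the highest count over all probe sets in any fit was 5588. With the mean over each gene's probe sets the unit is the gene, and 2 of 7 member genes (28.6%) and 2096 of 9155 genes (22.9%) were called. That mean over the 23 probe sets listed for EED was 0.055. Its sign is opposite to that of Bt.13842.1.S1_at and Bt.17742.2.A1_at, which are averaged into it.

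Within bulls, that mean called 1 of 7 genes in each of bulls 1, 2 and 3. In bull 2 the count of 2 became 4 without moderation, with quantile normalization, with an intensity trend and without the arrays of wide spread, and 6 with array weights, and in bull 3 array weights turned 4 into 8. Leaving out 1 array gave 3 to 6, 2 to 4 and 2 to 5.

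Between bulls, the mean over probe sets called 0 of 7 genes in all 3 comparisons. For bull 2 against bull 1, the count of 1 became 0 in the brighter 50% and without the arrays of wide spread and 2 with array weights (0 to 1 without 1 array). For bull 3 against bull 1, the count of 3 became 1 without moderation, 6 with array weights and 0 without the arrays of wide spread (0 to 6). For bull 3 against bull 2, it became 1 without moderation and 1 with the sample number as a block (0 to 3). Within and between bulls, all probe sets were counted in the main fit only. Whether the members' counts in the other fits moved with those of the array is therefore not known. The cause of these changes was not tested, beyond the fewer samples or features that some of them use. The interaction count was 0 throughout.

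The deviations of same-numbered pools of 2 sexes correlated at -0.181 to 0.103 over 9 pairs, and those of other numbers at -0.154 to 0.208. Each deviation is from a mean of only 3 pools, so whether same-numbered pools shared a run or batch cannot be told from this. With the replicate number as a block, 9 members were called for sex, as CBX3 no longer passed (adjusted p = 0.0505), and the EED calls between bulls at Bt.7015.1.S1_at (0.0551 and 0.0527) and Bt.8834.2.S1_a_at (0.0584, bull 3 against bull 2) were lost. No 2 arrays held identical values.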
